A study of Ovis aries with 2 samples.

Results

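PRLH, the gene of prolactin-releasing hormone, is described here in sheep blood cells. The gene was found by its symbol and is 1 of the 26814 genes counted. It was chosen by its UMI counts in CD4 T cells, which an earlier analysis had placed among those farthest apart between the libraries, and PRLH-positive cells were selected on the same counts. Its levels and the genes of those cells are therefore a description and carry no test. PRLH makes a short RFamide peptide, a family named for the amidated arginine and phenylalanine at its end. Its best-known receptor is GPR10, encoded by PRLHR, and in rodents the peptide comes from brainstem and hypothalamic neurons and acts on feeding, stress responses and energy balance. The mature peptide forms only after proteases cut its precursor and the amidating enzyme PAM finishes its end.

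The A.G.-ES library came from weaned lambs, as the series title calls them, with a suture embedded at the acupuncture point ST36 on both sides, which the title describes as eluting astragaloside IV and glycyrrhizic acid. Animals of the untreated library had no suture. Peripheral blood mononuclear cells were taken from a density gradient without culture and read with a droplet 3′ method that counts unique molecular identifiers (UMIs). The labels give 1 library per group and not how many animals are behind it, so treatment, animal and library cannot be told apart and the treatments were not tested against each other.

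The files held 9638 A.G.-ES barcodes with 44485442 UMIs and 8246 untreated barcodes with 55861418 UMIs, with medians of 4165 and 5200 UMIs per barcode. After filtering, 8737 A.G.-ES and 7565 untreated cells remained. The libraries also differed in the 85 genes of the Y chromosome, with 850 UMIs in the A.G.-ES and 44632 in the untreated library. A set of 55 kept barcode sequences occurred in both libraries and held 4 A.G.-ES and 0 untreated PRLH UMIs, and leaving them out gave 53.5 CPM (UMIs per 1000000) in SOX13/RHEX T cells. All intervals below are 95% intervals that cover counting error only.

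PRLH UMIs lay almost wholly in the A.G.-ES library, and 83.4% of those in its kept cells lay in T gates. The kept cells held 796 PRLH UMIs in the A.G.-ES and 3 in the untreated library. Of the 796, 664 fell in cells gated as T cells by at least 2 UMIs of CD3D and CD3E, subunits of the T-cell receptor complex. These 664 UMIs came from 419 of 4972 A.G.-ES T cells, or 8.43% (7.67 to 9.23%), against 2 of 2646 untreated T cells, or 0.0756% (0.00916 to 0.273%). Both untreated cells were SOX13/RHEX T cells, 1 with 2 PRLH UMIs and 1 with 1. Over all T gates the level was 31.1 CPM (28.8 to 33.5) in the A.G.-ES and 0.260 CPM (0.0537 to 0.761) in the untreated library, a ratio of 119 (40.6 to 580).

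Among A.G.-ES T cells the level was highest in those gated by SOX13 and RHEX. SOX13 is a transcription factor known for its part in gamma-delta T cells in mice, and the gate asked for at least 2 UMIs of SOX13 and RHEX together without CD4 or CD8B. These cells had 53.7 CPM (46.0 to 62.2) in A.G.-ES cells, from 175 UMIs in 105 of 742 cells, and 0.503 CPM (0.104 to 1.47) in the untreated library, from 3 UMIs in 2 of 1477 cells. The ratio was 107 (35.9 to 523). This was the T gate with the most untreated cells.

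CD8B T cells, which carry the beta chain of the CD8 coreceptor of killer T cells, had 29.7 CPM (23.6 to 37.0) in A.G.-ES cells, from 81 UMIs in 43 of 618 cells. None of the 168 untreated CD8B T cells had a PRLH UMI, which puts the A.G.-ES level at least 8.71-fold higher against a floor of 3 counts summed over the gate. CD4 T cells, the helper lineage, had 21.8 CPM (18.4 to 25.6) in A.G.-ES cells, from 146 UMIs in 98 of 1387 cells, and 0 UMIs in 352 untreated cells, so the level was at least 14.0-fold higher. T cells in none of these gates had 30.2 CPM (26.6 to 34.1) in A.G.-ES cells, from 262 UMIs in 173 of 2225 cells, and 0 UMIs in 649 untreated cells, at least 27.6-fold higher.

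Cells gated as natural killer (NK) cells, by a UMI of the receptor gene NCR1 and at most 1 of CD3D and CD3E, were few. They had 51.2 CPM (25.6 to 91.7) in A.G.-ES cells, from 11 UMIs in 7 of 93 cells, and 0 UMIs in 39 untreated cells, at least 2.01-fold higher. NCR1 stood at 811 CPM and CD3E at 158 CPM in the A.G.-ES gate, and at 595 and 76.5 CPM in the untreated one. With no CD3D or CD3E UMI allowed in the gate, the NK level was 31.0 CPM, in 3.70% of cells. With no B-cell or monocyte marker UMI allowed instead, it was 30.4 CPM. By level the A.G.-ES gates ran from SOX13/RHEX T and NK through other T and CD8B T to CD4 T. The SOX13/RHEX T interval lay above those of the other T gates, while that of CD8B T overlapped with those of CD4 T and other T. The wide NK interval overlapped with those of all 4 T gates, with that of CD4 T only at its edge, and lay above those of B cells and monocytes.

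B cells and monocytes gave the level outside T and NK cells. A.G.-ES B cells had 7 PRLH UMIs in 7 of 1958 cells, at 0.629 CPM (0.253 to 1.30), and untreated B cells had 0 UMIs in 3493 cells, which allows a share of up to 0.0859% by a limit of 3 counts. A.G.-ES monocytes had 1 UMI in 206 cells, at 0.755 CPM, and untreated monocytes 0 in 125. The B-cell level was 2.03% of that in T cells of the same library, at median depths of 5109 and 4075 UMIs. IL7R, the interleukin 7 receptor gene, and GNLY, the gene of the granule protein granulysin, stood at 2.53% and 2.20% of their T-cell level in these B cells, close to the value for PRLH. The T-cell signalling genes LCK and CD247 stood higher, at 11.6% and 5.33% of their T-cell level. Free RNA in the droplets was not tested.

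**Figure D1:**
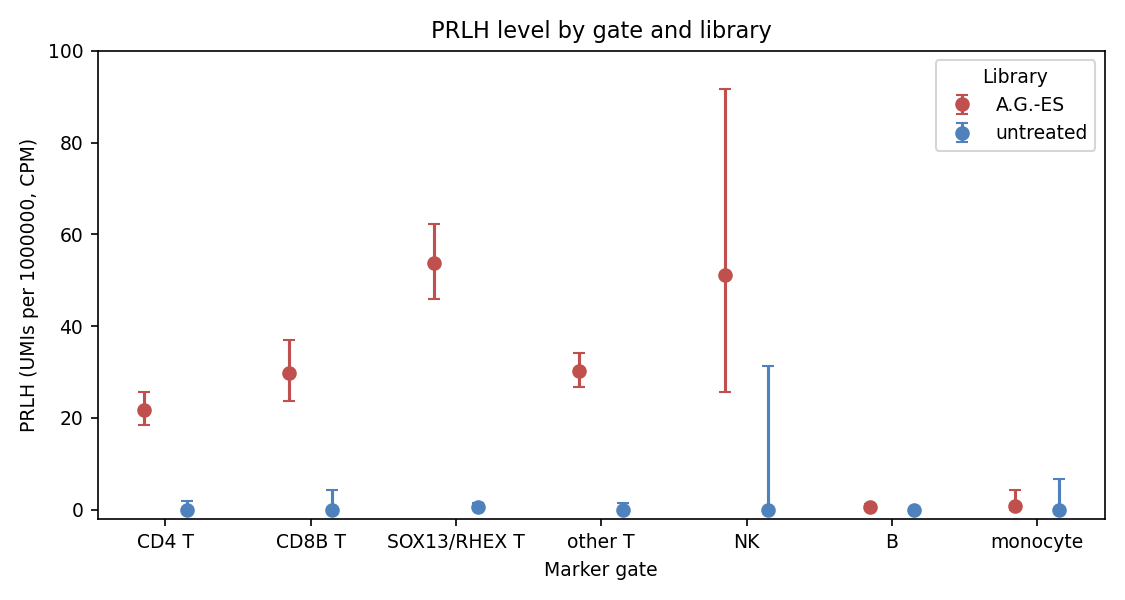
PRLH level in CPM (UMIs per 1000000) by marker gate, A.G.-ES in red and untreated in blue, with exact Poisson intervals. The A.G.-ES SOX13/RHEX T gate stands at 53.7 CPM, the other A.G.-ES T gates between 21.8 and 30.2 CPM, and every untreated gate at or below 0.503 CPM.

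Depth differed between gates, so each cell was also thinned to 1500 UMIs, leaving out shallower cells. The share with a PRLH UMI was then 7.07% (5.32 to 9.16%) of 736 A.G.-ES SOX13/RHEX T cells, against 0.138% (0.0167 to 0.498%) of 1448 untreated ones. It was 3.93% (2.54 to 5.80%) of 610 CD8B T cells and 3.21% (2.34 to 4.28%) of 1371 CD4 T cells in the A.G.-ES library, and 0 of 160 and 0 of 350 in the untreated library. Thinning left out 6 A.G.-ES and 29 untreated SOX13/RHEX T cells, and at most 16 A.G.-ES and 8 untreated cells of the CD8B and CD4 gates. Unthinned, the A.G.-ES shares were 14.2%, 6.96% and 7.07%. In B cells the thinned share was 0.106% (0.0128 to 0.382%) of 1887 A.G.-ES cells and 0 of 3350 untreated cells. The order of the 3 T gates by thinned share was the same as by level. The CD8B T interval overlapped with that of CD4 T and with that of SOX13/RHEX T. The SOX13/RHEX T interval lay above that of CD4 T. Of NK cells deep enough, 7 of 67 A.G.-ES (10.4%, 4.30 to 20.3%) and 0 of 32 untreated ones (0 to 10.9%) had PRLH. This A.G.-ES interval overlapped with the untreated one and with that of A.G.-ES SOX13/RHEX T cells.

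Most PRLH-positive cells carried few copies. Of the 419 positive T cells, 275 had 1 UMI, 92 had 2, 29 had 3 and 23 had 4 or more, with 12 in the highest, a CD8B T cell of 7005 UMIs. Over 4 equal sets of A.G.-ES T cells by depth, the level was 34.4, 35.3, 29.97 and 28.4 CPM from the shallowest to the deepest, with overlapping intervals. The share of positive cells was 5.79% in the shallowest and 10.3% in the deepest set.

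PRLH counts were rare where CCR7 was detected. CCR7 is the chemokine receptor that takes naive and central memory T cells to lymph nodes. None of 108 A.G.-ES CD4 T cells with a CCR7 UMI had PRLH, which allows a share of up to 2.78% by a limit of 3 counts, against 98 of 1279 without one (7.66%). In CD8B T cells the counts were 0 of 29 with CCR7, which allows up to 10.3% by the same limit, and 43 of 589 without (7.30%). In other T cells they were 4 of 127 and 169 of 2098. Thinned to 1500 UMIs, the shares of other T cells were 1.57% (0.191 to 5.57%) and 4.14% (3.30 to 5.11%), with overlapping intervals. Thinned to 1500 UMIs, the share without CCR7 was 3.48% (2.54 to 4.65%) in CD4 T cells, whose interval meets the exact binomial one of the cells with CCR7 (0 to 3.36%).

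CTLA4 is an inhibitory receptor of activated and regulatory T cells. PRLH was found in 2 of 155 A.G.-ES CD4 T cells with a CTLA4 UMI and in 96 of 1232 without, or 2.72 CPM (0.329 to 9.81) and 24.1 CPM (20.4 to 28.4). Thinned, the shares were 1.32% (0.160 to 4.67%) and 3.45% (2.49 to 4.63%), with overlapping intervals. Of 49 A.G.-ES CD4 T cells with a UMI of FOXP3, the regulatory T-cell factor, 2 had PRLH, with 4 UMIs. CD8B T cells with at least 5 GNLY UMIs had 51.0 CPM (36.6 to 69.1) and those with fewer 20.8 CPM (14.9 to 28.4). At equal depth the shares of these were 6.07% (3.27 to 10.2%) and 2.78% (1.39 to 4.92%), with overlapping intervals.

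**Figure D2:**
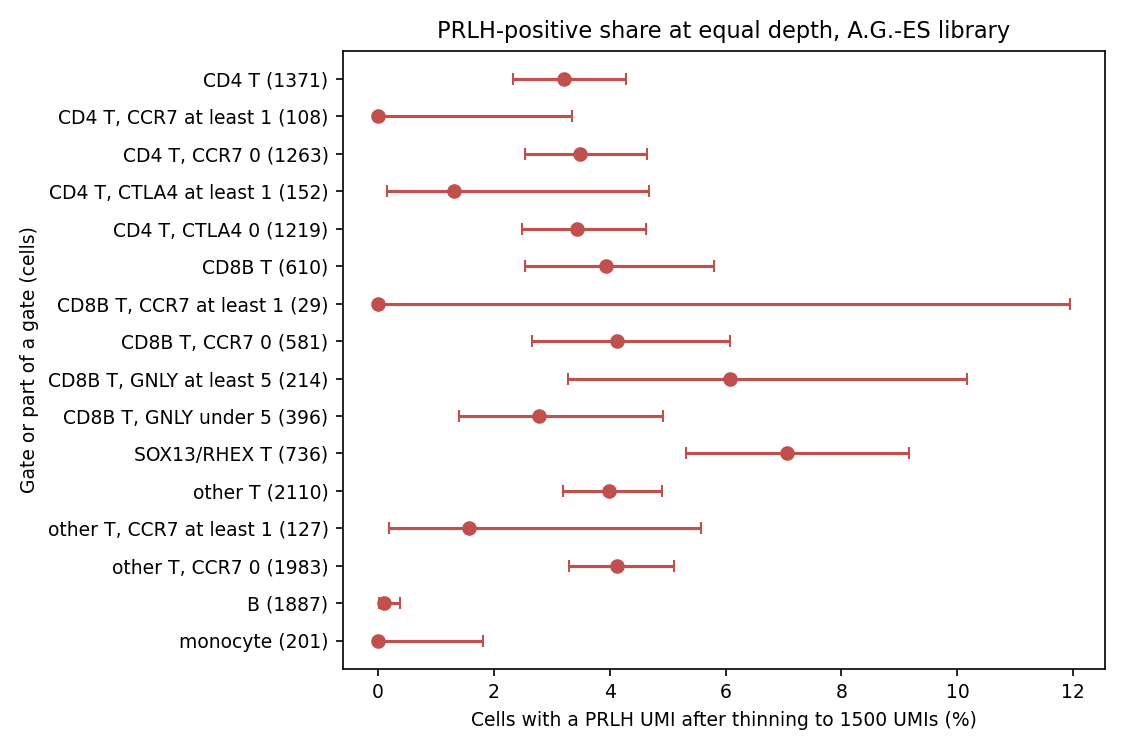
Share of A.G.-ES cells with a PRLH UMI after thinning each to 1500 UMIs, by gate and by parts of a gate, with exact binomial intervals and the number of cells in brackets. SOX13/RHEX T cells stand at 7.07%, CD4 T cells with CCR7 at 0 of 108, and B cells at 0.106%.

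The 419 PRLH-positive A.G.-ES T cells were set beside 1257 PRLH-zero T cells of the same gates and nearest depth, with medians of 4389 and 4387 UMIs. The values describe 1 library, since its cells are not replicates. Where it holds several animals, PRLH-positive and PRLH-zero cells could come from different ones, which cannot be told apart here. The positive cells had a median of 1617 genes and the zero cells 1533, and B-cell marker UMIs averaged 0.458 and 0.421 per cell, with doublet scores of 0.0376 and 0.0356. Of 6388 genes with at least 100 UMIs over both sets, 251 (3.93%) stood past 1.5-fold on the higher side in the positive cells and 125 (1.96%) on the lower side, with a median log2 ratio of 0.08.

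The 10 genes highest in PRLH-positive cells with a symbol stood between 2.34 and 3.19-fold. IL17RB, the receptor subunit for interleukin 25, led these at 33.7 CPM in positive and 10.6 CPM in zero cells (3.19-fold, 2.22 to 4.58). CCR8, a chemokine receptor gene of skin-homing and regulatory T cells, was at 25.01 and 10.4 CPM (2.41-fold, 1.62 to 3.56). Both were higher in CD4 T cells taken alone, at 2.90 and 3.01-fold. In SOX13/RHEX T cells IL17RB had 0 UMIs in both sets, and CCR8 had 8 and 4.

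Genes of cytotoxic cells were also among these 10. CD244, a receptor of NK and killer T cells, was at 80.7 CPM in positive and 32.2 CPM in zero cells (2.50-fold, 2.01 to 3.11), with a UMI in 20.8% and 9.94% of cells. GNLY was at 3330 and 1352 CPM (2.46-fold, 2.38 to 2.55), yet its share of cells moved less, at 31.3% and 24.98%. The rest were the inhibitory G protein gene GNAI1 (2.66-fold), the phosphatase gene PTPRK (2.48), the phosphatase gene PXYLP1 (2.47), the oxygen-sensing hydroxylase gene EGLN3 (2.43), SETBP1 (2.39) and VAV3 (2.34), an exchange factor gene of antigen receptor signalling. VAV3 went the other way in CD4 T cells, at 0.501-fold from 7 and 42 UMIs. The other genes were higher in each T gate where both sets together had at least 10 UMIs of them, some of them only slightly. In other T cells PTPRK stood at 1.06-fold (34 and 95 UMIs), GNAI1 at 1.18 and PXYLP1 at 1.25-fold. PTPRK was at 4.70-fold in CD4 T cells (86 and 55 UMIs).

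The 10 genes with a symbol lowest in PRLH-positive cells stood between 0.201 and 0.428-fold. MAGI1, a scaffold protein of cell junctions, was at 9.19 CPM in positive and 45.7 CPM in zero cells (0.201-fold, 0.117 to 0.324). HINT1, a nucleotide hydrolase gene, was at 12.3 and 52.2 CPM (0.235-fold, 0.148 to 0.356), with a UMI in 4.53% and 18.9% of cells. GIMAP8, a GTPase gene of lymphocytes, was at 6.64 and 27.4 CPM (0.242-fold, 0.126 to 0.425). ADM2, which encodes the peptide hormone adrenomedullin 2, was at 7.66 and 25.9 CPM (0.296-fold, 0.161 to 0.503).

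The others were IGSF1 (0.216-fold), the sorting nexin gene SNX9 (0.285), the small GTPase gene RAC3 (0.329), TANC1 (0.354), the acylphosphatase gene ACYP2 (0.371) and CTLA4 (0.428). All 10 were lower in each T gate where both sets together had at least 10 UMIs of them. In SOX13/RHEX T cells, for example, HINT1 had 6 and 109 UMIs, MAGI1 7 and 95 and GIMAP8 3 and 58. CCR7 had 6 and 83 UMIs over all T gates (0.216-fold, 0.0772 to 0.491), short of the count minimum. LOC121820289, a protein-coding gene with no symbol had 3 and 317 UMIs (0.0283-fold, 0.00581 to 0.0836), and LOC101123288, another such gene, had 88 and 59 (4.47-fold, 3.18 to 6.32). Both were picked after their values were seen.

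**Figure D3:**
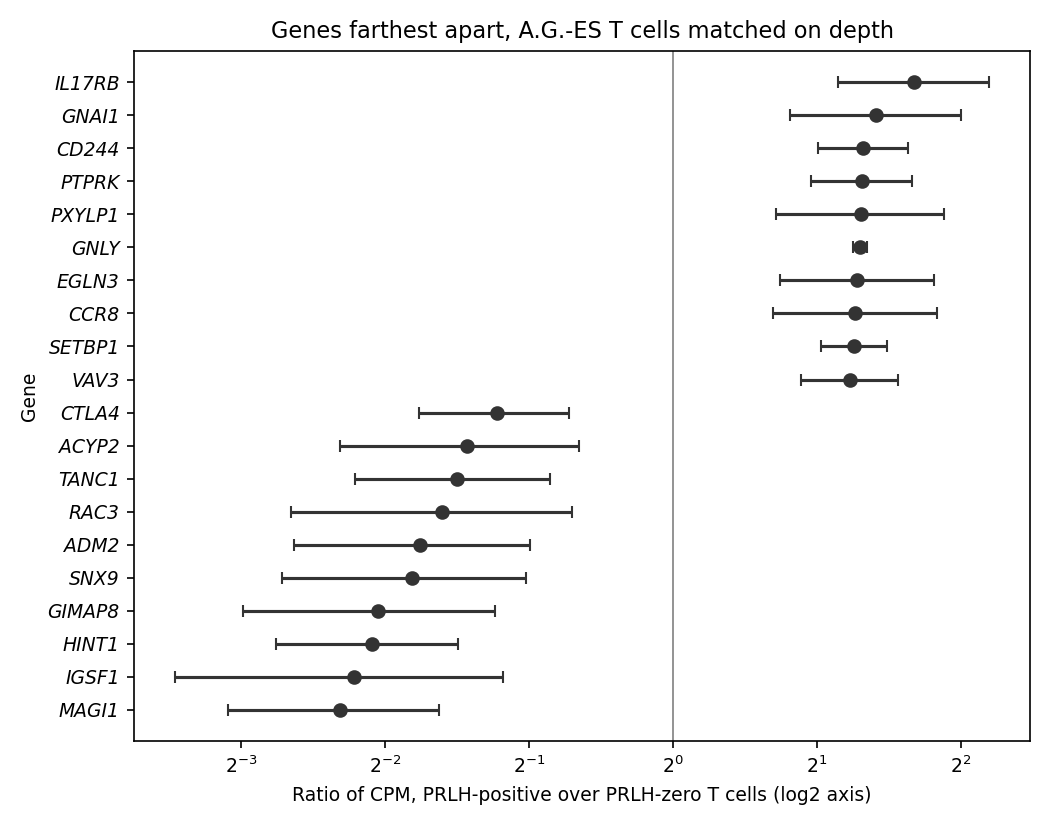
Ratio of CPM, PRLH-positive over PRLH-zero A.G.-ES T cells matched on gate and depth, on a log2 axis, for the 10 highest and 10 lowest genes with a symbol, with exact intervals for counting error. IL17RB stands at 3.19-fold and MAGI1 at 0.201-fold.

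Summed over these 10 genes, A.G.-ES T cells with 0 UMIs had PRLH in 314 of 2426 cells (12.9%), with 1 in 75 of 1120 (6.70%), with 2 in 15 of 595 (2.52%), with 3 in 9 of 348 (2.59%) and with 4 or more in 6 of 483 (1.24%). PRLH was thus rarest where these genes were most counted, although median depth was 3754 UMIs in the first and 4743 in the last of these sets. These are the cells that picked the genes. In A.G.-ES cells outside all gates but with a CD3D or CD3E UMI, which did not pick them, the shares were 9.22% of 510, 8.98% of 167, 6.82% of 88, 9.09% of 44 and 1.47% of 68 cells. The last share was 1 cell (0.0372 to 7.92%), and its interval overlapped with that of the first (6.85 to 12.1%).

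Over the other highest genes than GNLY, the share of T cells with PRLH was 5.43% of 2891 cells at 0 UMIs and 21.1% of 436 cells at 4 or more. These T cells also picked the genes, so a rise was built in. In the cells outside all gates, which did not pick them, the same shares were 7.68% of 521 and 9.09% of 99, with overlapping intervals. At 1, 2 and 3 UMIs the shares of those cells were 9.35, 6.85 and 13.3%.

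**Figure D4:**
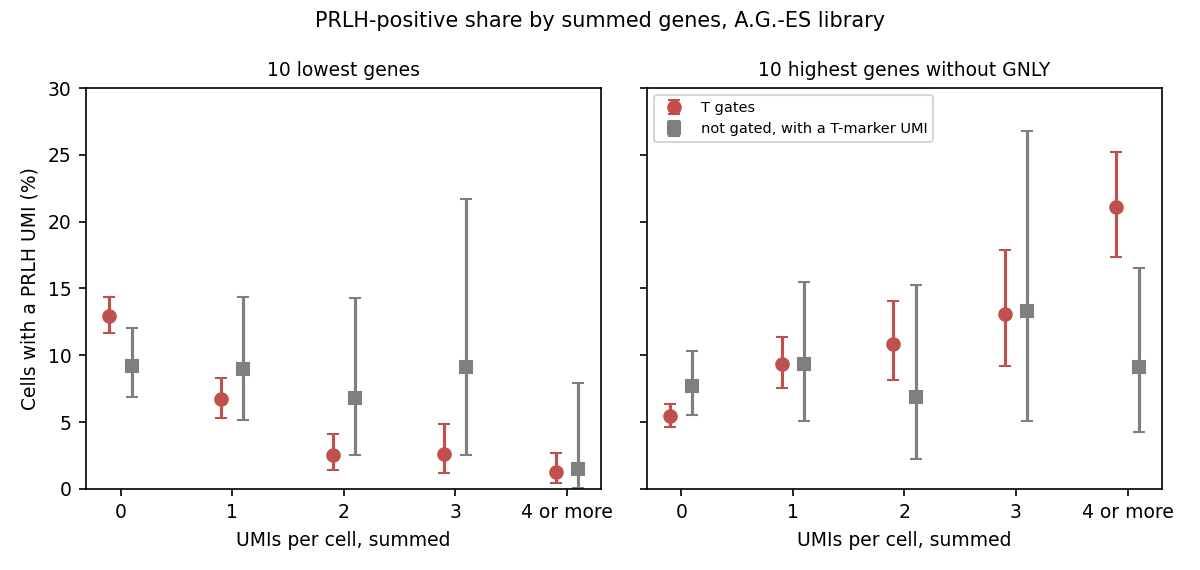
Share of A.G.-ES cells with a PRLH UMI against the UMIs per cell summed over the 10 lowest genes (left) and over the 10 highest without GNLY (right), with exact binomial intervals. The cells in T gates (circles) picked both sets of genes, and those outside all gates (squares) did not. For the lowest genes the share in T gates is 12.9% at 0 and 1.24% at 4 or more UMIs. Outside all gates it is 9.22, 8.98, 6.82 and 9.09% at 0, 1, 2 and 3 UMIs. At 4 or more it is 1.47%, from 1 cell.

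Most measured genes of the T-cell state lists stood within 1.5-fold between PRLH-positive and PRLH-zero cells. GNLY, CCR8 and CTLA4, named above, were among the exceptions. Of 14 effector T genes past the count minimum, 4 were at least 1.5-fold higher and 1 lower, against 3.93% and 1.96% of all genes, with a median log2 ratio of 0.37. The higher ones were GNLY, the chemokine gene CCL5 (1.92-fold), the granule gene NKG7 (1.71) and the galectin gene LGALS1 (1.53), and the lower one the transcription factor gene EOMES (0.594). By gate, NKG7 ran from 1.00-fold in CD4 T to 1.97-fold in other T cells. LGALS1 ran from 1.17-fold in SOX13/RHEX T to 2.17-fold in CD8B T cells. Of 13 naive and central memory T genes none passed 1.5-fold either way. LEF1 and TCF7, transcription factors of naive T cells, stood at 0.969 and 1.08-fold, although CCR7 was low. Of 7 Treg genes 1 was higher (CCR8) and 1 lower (CTLA4). Of 11 immediate early genes and 7 cell division genes past the count minimum none passed 1.5-fold, with FOS at 0.742 and MKI67 at 1.12-fold. Short of that minimum, the cell division gene CDK1 had 18 and 16 UMIs (3.37-fold, 1.62 to 7.06). UBE2C, of the same list, had 9 and 58 (0.465-fold, 0.202 to 0.944).

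PRLH was scarcely accompanied by genes of its own family. Over all kept cells PRLHR had 1 UMI in the A.G.-ES and 0 in the untreated library. NPFF, the gene of neuropeptide FF, had 11 and 19 UMIs, and KISS1, which encodes kisspeptin, 3 and 11. NPVF and QRFP had 0 in both. The receptor gene NPFFR1 had 8 and 2 UMIs, NPFFR2 1 and 2, KISS1R 0 and 1 and QRFPR 1 and 0. None of these 9 genes reached 20 UMIs in a T gate.

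Genes that mature peptide hormones were partly present in T cells. PCSK1, the convertase of neuroendocrine cells, had 0 UMIs in the T gates of both libraries, and PAM, the amidating enzyme, 264 A.G.-ES and 76 untreated UMIs. FURIN, a convertase that most cells express, had 253 and 100. At the level of single gates PAM was at 13.6 and 13.5 CPM in CD4 T cells and at 13.6 and 17.1 CPM in CD8B T cells. In SOX13/RHEX T cells, the T gate with the highest PRLH level, it was at 0.920 and 0.503 CPM, from 3 UMIs in each library. SCG5, a chaperone of the neuroendocrine convertase PCSK2, stood at 0.613 CPM in A.G.-ES and 8.71 CPM in untreated SOX13/RHEX T cells, from 2 and 52 UMIs (0.0704-fold, 0.00830 to 0.267). In that gate, of 5 processing genes past 20 UMIs over both libraries, 1 was at least 1.5-fold higher, PCSK7 (1.52-fold, 0.945 to 2.45), and 1 lower, SCG5. The median log2 ratio of all genes was -0.13 in SOX13/RHEX T, -0.17 in CD4 T and -0.27 in CD8B T cells, and ratios are to be read against it. All genes there were higher at 9.24% and lower at 16.7%. In CD4 T cells 0 of 5 passed either way, against 10.3% and 18.6% of all genes. In CD8B T cells 1 was higher and 1 lower, against 9.91% and 28.6%. They were FURIN, from 24 and 5 UMIs (1.55-fold, 0.579 to 5.20), whose interval includes 1, and PCSK7 (0.526-fold, 0.288 to 0.986). In PRLH-positive and PRLH-zero T cells PAM had 11 and 63 UMIs (0.523-fold, 0.248 to 1.00).

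The prolactin axis was read through a list of PRL, signalling genes and GHR, a receptor gene of growth hormone rather than prolactin. The prolactin receptor gene PRLR was not found by its symbol among the counted genes. PRL, prolactin itself, had 0 UMIs in the T gates of both libraries. GHR, the growth hormone receptor gene, was at 31.9 CPM in A.G.-ES and 2.51 CPM in untreated SOX13/RHEX T cells (12.7-fold, 7.35 to 23.5). In CD4 T cells GHR was at 305 and 367 CPM (0.832-fold, 0.764 to 0.908). SOCS3, a feedback inhibitor of cytokine signals, was at 26.1 and 53.8 CPM in SOX13/RHEX T cells (0.485-fold, 0.377 to 0.617). These were the 2 of 6 measured axis genes past 1.5-fold in that gate, against 9.24% of all genes higher and 16.7% lower, and STAT5B stood at 1.16-fold. In CD4 T cells 2 of 7 axis genes were lower and 0 higher, against 18.6% and 10.3% of all genes. They were CISH, an inhibitor of cytokine signals that STAT5 induces (0.447-fold, 0.274 to 0.739), and the kinase gene PIM1 (0.544-fold, 0.229 to 1.39). In CD8B T cells GHR was higher (1.91-fold) and JAK2 (0.641) and CISH (0.415) lower, of 6 measured, against 9.91% and 28.6% of all genes. Between PRLH-positive and PRLH-zero cells 0 of 5 axis genes passed 1.5-fold, with GHR at 1.10, STAT5B at 1.02 and JAK2 at 1.19-fold. Of the secretory granule list, SNAP25, a gene of vesicle fusion, had 11 A.G.-ES and 71 untreated UMIs in SOX13/RHEX T cells (0.283-fold, 0.135 to 0.538), while CHGA and CHGB, the chromogranin genes, had 3 and 0 and 1 and 1 UMIs over all T gates.

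None of the 10 genes beside PRLH was split between the libraries as it was. In the order of the counted genes, which was the order of the RefSeq table of ARS-UI_Ramb_v3.0 for PRLH and its 5 neighbours on each side, PRLH lies between RAB17, a vesicle traffic GTPase, and MLPH, which links pigment granules to myosin. RAB17 had 5 A.G.-ES and 9 untreated UMIs in the T gates and MLPH 17 and 22. In PRLH-positive and PRLH-zero cells RAB17 had 1 and 0 UMIs and MLPH 2 and 7. LRRFIP1, a nucleic acid-binding protein gene farther off on the side of RAB17, was at 306 CPM in A.G.-ES and 334 CPM in untreated T cells. It was at 330 and 318 CPM in B cells, where PRLH was near 0. In PRLH-positive and PRLH-zero cells LRRFIP1 was at 358 and 311 CPM (1.15-fold, 1.05 to 1.26).

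COPS8, a COP9 signalosome subunit gene on the side of MLPH, was at 10.9 CPM in A.G.-ES and 19.6 CPM in untreated T cells. RBM44 and COL6A3 had at most 1 UMI in the T gates of either library, and the 4 noncoding neighbours had 0. The table used gives no strand and no source used here names the build or strand setting behind the counts, so transcription running into PRLH from a neighbour was not tested further.

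**Figure D5:**
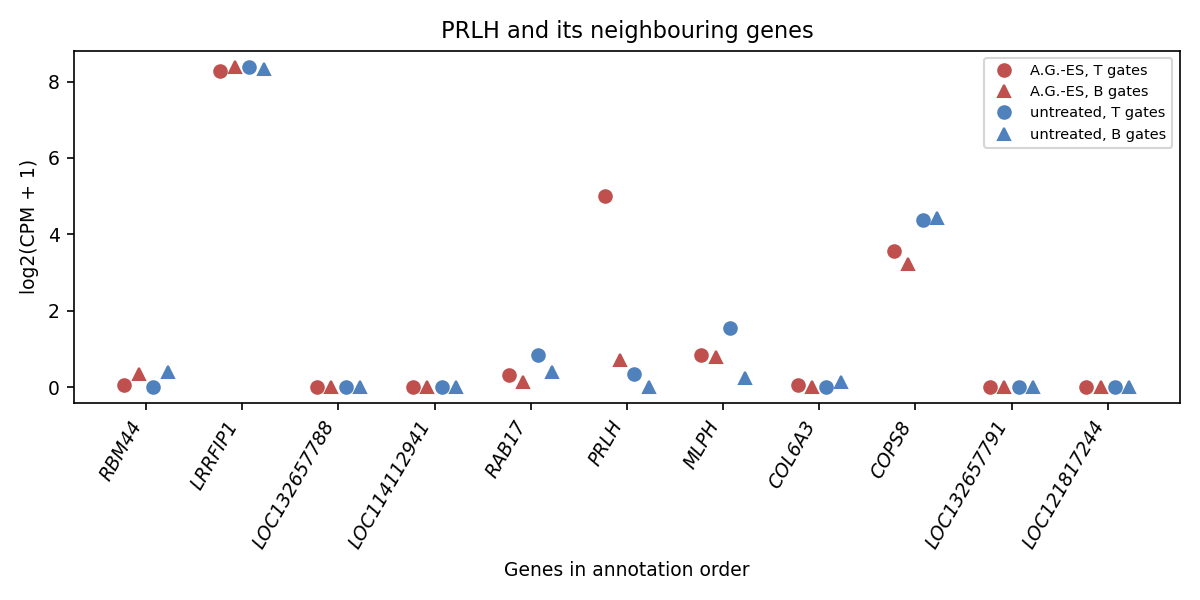
Level of PRLH and its 5 neighbours on each side in gene order, as log2(CPM + 1), in T gates (circles) and B gates (triangles) of the A.G.-ES (red) and untreated (blue) libraries. PRLH stands at 31.1 CPM in A.G.-ES and 0.260 CPM in untreated T cells, while LRRFIP1 is at 306 and 334 CPM and RAB17 and MLPH are under 2 CPM in all 4.

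Few genes were split between the libraries as PRLH was. Of 10053 genes with at least 50 UMIs in A.G.-ES T gates, 16 had at most 3 in untreated T gates (0.159%), PRLH among them, and 5 had 0 (0.0497%). By ratio, with untreated counts taken as at least 3, PRLH was number 3 of the 10053 and the first with a gene symbol. Within gates it was number 4 of 5646 in SOX13/RHEX T, 7 of 7679 in CD4 T and 12 of 5385 in CD8B T cells, where it was the third with a symbol. PRLH was chosen for CD4 T counts far apart between these libraries, so its high ranks restate that choice. The 2 genes with a symbol at 0 in untreated T gates were KCP, which encodes a secreted regulator of bone morphogenetic proteins, with 118 A.G.-ES UMIs, and the phosphatase gene CTDSPL, with 75. KCP had 83 UMIs in A.G.-ES B cells too. Neither went with PRLH by cell, at 3 and 38 UMIs for KCP and 0 and 26 for CTDSPL in PRLH-positive and PRLH-zero cells.

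The gene whose levels over the 12 gate and library points were most like those of PRLH was GIMAP8. Pearson's r of log2(CPM + 10) was 0.97 over 11226 genes ranked, as a description, since points of 1 library share its depth and free RNA. GIMAP8 was at 33.1 CPM in A.G.-ES and 0.838 CPM in untreated SOX13/RHEX T cells, at 19.99 and 1.55 CPM in CD4 T cells, at 16.9 and 3.41 CPM in CD8B T cells and at 2.16 and 0.0619 CPM in B cells. Within the A.G.-ES T cells the 2 genes nevertheless seldom met. A GIMAP8 UMI was in 416 of 4972 cells, and 11 cells had both, against 35.1 from the product of the 2 shares.

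Others among the 10 most alike were the adhesion gene CNTN2 (r 0.89), the cilia gene WDR35 (0.89), the phosphatase gene PTPRR (0.88), the calcium channel gene RYR2 (0.87), UBE2M (0.87), FXR2 (0.85), PIP4P2 (0.80) and the kinase gene TESK1 (0.79). RYR2 was at 28.3 CPM in A.G.-ES and 9.11 CPM in untreated CD8B T cells, and 1.72-fold (1.19 to 2.45) in PRLH-positive over PRLH-zero cells. For CNTN2, WDR35, PTPRR, UBE2M, FXR2, PIP4P2 and TESK1 the interval of that ratio includes 1.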

How the data were processed

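Libraries were made with the SeekOne DD 3′ kit, per the labels' protocols. The authors deposited raw UMI counts per gene and barcode. No source used here names the aligner, the counter or the build. Columns of values from other samples numbered 0. Barcodes were kept with at least 500 UMIs, 200 genes and at most 15% mitochondrial UMIs. The cells with the highest Scrublet scores (scanpy 1.11.5) were removed at 0.8% per 1000 cells, which came to 715 A.G.-ES and 523 untreated cells (7.56% and 6.47%). The automatic threshold of Scrublet marked 197 and 221.

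Gates used UMIs per barcode. B cells needed at least 3 UMIs of MS4A1, CD79A, CD79B, PAX5, BANK1, EBF1 and FCRLA, monocytes at least 3 of a list that held CD14, CSF1R, VCAN and CD68, and T and NK gates at most 2 of either. CD4 T cells also had no CD8A or CD8B UMI, CD8B T cells no CD4 UMI, and CD4 T, CD8B T and NK cells at most 1 UMI of SOX13 and RHEX. CD3G and CD163 were listed as markers and not used here.

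Counts were summed and expressed as CPM with exact Poisson intervals, shares with Clopper-Pearson intervals and ratios with exact conditional binomial intervals (scipy 1.17.1), checked on simulated data. Each PRLH-positive cell was matched to 3 zero cells. Named genes were, among those with a symbol, the 10 highest, 10 lowest and 10 most like PRLH, the family and neighbour lists, and 2 to 4 members of other lists. Some genes that this rule or the gates use are not reported here. PRLH, the gene lists and the gates were chosen with earlier results of these data known.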

Additional observations from a re-analysis of the deposited data

How the results depend on the processing

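No paired analysis was possible because each group holds 1 library. Of 102 values of PRLH level, PRLH share, genes past 1.5-fold and likeness under the alternatives, 85 stayed within their limits and 17 moved. These limits were wide for NK cells, whose level counted as unmoved from 30.4 to 59.6 CPM. Dropping the mitochondrial maximum gave the same PRLH levels and shares, so that choice could not move them. Of the ratios of named genes and the list values, 101 stayed within their limits, 26 moved and 1 reversed. Without mitochondrial, ribosomal and haemoglobin genes in the total, PRLH was at 29.1 (CD4 T), 40.7 (CD8B T) and 79.2 CPM (SOX13/RHEX T), by construction of a smaller total. The PRLH share of NK cells was 3.08% with no other marker UMI allowed. Thinned to 1000 UMIs the shares were 1.95% (CD4 T), 2.44% (CD8B T) and 4.59% (SOX13/RHEX T), and to 2500 UMIs 4.31% (CD4 T) and 9.90% (SOX13/RHEX T). Genes at least 1.5-fold lower in PRLH-positive cells were 1.06% of all with 1 matched cell, 3.40% in the CD4 T gate only and 4.69% without matching on depth. Higher and lower genes were 7.25% and 5.67% with a count minimum of 30, and 2.13% and 0.683% with 300. The cause was not tested. VAV3 turned to 0.501-fold in the CD4 T gate only. Over these choices GNLY ranged from 2.03 to 13.7-fold, PTPRK from 1.88 to 4.70, EGLN3 from 1.59 to 4.05, PXYLP1 from 1.48 to 3.67, CTLA4 from 0.158 to 0.428 and GIMAP8 from 0.0429 to 0.308-fold. By Spearman's rank correlation 4 of the 10 genes most like PRLH remained. With 1 library per group, no replicate could be left out. The NK gates held 93 A.G.-ES and 39 untreated cells, and their intervals are wide.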

Other observations

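Barcodes set aside before the gates also held PRLH. The 715 A.G.-ES cells removed by doublet score had 147 PRLH UMIs, in 84 cells (11.7%), at a median of 6509 UMIs per cell. The 523 removed untreated cells had 0. Of the kept A.G.-ES cells in no gate, 631 with no CD3D or CD3E UMI had PRLH in 9 cells (7.82 CPM), 460 with 1 such UMI in 21 (21.7 CPM), and 417 with at least 2 but more than 2 UMIs of B-cell or monocyte markers in 52 (30.2 CPM).

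Some genes low in PRLH-positive cells were found together in single A.G.-ES T cells. MAGI1 and GIMAP8 met in 86 of 4972 cells, 2.79 times the product of their shares, and MAGI1 and HINT1 2.14 times as often as the product. In 2646 untreated T cells MAGI1 and HINT1 met in 99 cells, 1.07 times the product, and MAGI1 and GIMAP8 in 3, 1.53 times. SNX9 and CTLA4 met 4.38 times as often as the product in A.G.-ES and 11.9 times in untreated T cells. Over the 45 pairs of the 10 genes the median was 1.22 in A.G.-ES and 1.11 in untreated T cells. MAGI1 and CTLA4 met in 14 A.G.-ES cells, 0.447 times the product. The shares were taken over all T gates and depths together, so gate and depth were not held apart in these products.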
